A study of Homo sapiens with 3 samples.

Results

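The cells described here are those of a pancreatic carcinoma line with the most RNA of a set of genes of mitotic entry and mitosis, CDC20 and CCNB1 foremost. They were chosen by a score, the summed unique molecular identifiers (UMIs) of CDC20, CCNB1, PTTG1, CDKN3, KIF20A and PLK1 per 10000 UMIs of the cell. The top 10% of the pooled cells of 3 libraries were taken, which gave 564 members of 5640 cells, and the other 5076 cells served for comparison. The cells were BxPC-3, a long-established human line derived from a pancreatic ductal adenocarcinoma. EGFP-expressing and mCherry-expressing cells were mixed in suspension so that cells could enter one another, a form of cell-in-cell structure known as entosis. Sorting then gave a double-positive group with both colours and a single-positive group with 1 colour, and parental cells formed the last group. All 3 groups were the same line, and none carried a drug treatment or a targeted gene in the labels. Each group was 1 droplet library made with a 5' kit, so every value below describes that library and none was tested.

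Entry into mitosis depends on cyclin B1 (CCNB1) bound to the kinase CDK1, with the Polo-like kinase PLK1 helping to switch the complex on. Once chromosomes are attached to the spindle, CDC20 activates the anaphase-promoting complex (APC/C), a ubiquitin ligase that marks cyclin B1 and securin (PTTG1) for destruction. Separase then cuts the cohesin that holds sister chromatids together, KIF20A helps to build the midzone where the cell divides, and CDKN3 is a phosphatase that acts on cyclin-dependent kinases. Many of these genes are transcribed together late in the cycle by the MYB-MuvB and FOXM1 complexes, recruited in part through promoter CHR elements. CCAAT boxes also occur in many of these promoters.

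The promoters of the 6 genes are shown because these genes define the score and their elements can be set beside those of the other genes high in members. Each line is the 250 bases before the annotated start, written 5′ to 3′ on the gene's strand, from the RefSeq promoter table for GRCh38.p14. Capitals mark TTTGAA, the core of the CHR element, the related TTTAAA, and CCAAT, on either strand, so TTCAAA and ATTGG are the reverse forms.
CDC20: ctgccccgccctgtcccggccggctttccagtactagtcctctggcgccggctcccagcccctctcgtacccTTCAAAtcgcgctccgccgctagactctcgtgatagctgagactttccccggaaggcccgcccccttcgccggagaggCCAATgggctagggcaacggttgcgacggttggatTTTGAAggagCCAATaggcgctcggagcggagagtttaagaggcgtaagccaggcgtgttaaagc
CCNB1: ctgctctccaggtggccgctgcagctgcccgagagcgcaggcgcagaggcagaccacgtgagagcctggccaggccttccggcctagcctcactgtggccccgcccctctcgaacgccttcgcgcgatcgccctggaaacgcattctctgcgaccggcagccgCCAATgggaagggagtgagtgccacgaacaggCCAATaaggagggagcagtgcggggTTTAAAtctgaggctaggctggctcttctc
PTTG1: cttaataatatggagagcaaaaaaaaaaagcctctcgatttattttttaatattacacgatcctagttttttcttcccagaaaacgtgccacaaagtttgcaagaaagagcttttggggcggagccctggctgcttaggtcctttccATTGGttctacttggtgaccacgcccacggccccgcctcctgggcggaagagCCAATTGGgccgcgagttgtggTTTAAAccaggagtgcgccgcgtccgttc
CDKN3: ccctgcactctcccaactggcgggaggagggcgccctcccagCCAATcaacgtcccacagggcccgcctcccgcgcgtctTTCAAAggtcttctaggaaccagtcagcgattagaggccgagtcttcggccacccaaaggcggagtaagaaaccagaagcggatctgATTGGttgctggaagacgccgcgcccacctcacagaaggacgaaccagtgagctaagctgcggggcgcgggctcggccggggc
KIF20A: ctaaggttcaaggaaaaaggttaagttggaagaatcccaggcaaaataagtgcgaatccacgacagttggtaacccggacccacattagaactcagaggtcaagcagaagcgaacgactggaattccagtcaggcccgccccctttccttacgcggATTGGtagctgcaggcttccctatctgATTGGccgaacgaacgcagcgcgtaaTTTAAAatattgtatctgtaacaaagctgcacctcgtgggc
PLK1: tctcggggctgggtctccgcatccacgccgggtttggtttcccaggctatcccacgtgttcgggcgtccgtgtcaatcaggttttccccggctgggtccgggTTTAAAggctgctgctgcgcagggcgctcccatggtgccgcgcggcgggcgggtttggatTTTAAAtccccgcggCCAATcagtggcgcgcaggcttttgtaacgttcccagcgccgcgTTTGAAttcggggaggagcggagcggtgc
The windows lie at chr1:43358731-43358980 for CDC20, chr5:69166900-69167149 for CCNB1, chr5:160421605-160421854 for PTTG1, chr14:54396757-54397006 for CDKN3, chr5:138178862-138179111 for KIF20A and chr16:23678639-23678888 for PLK1, all on the plus strand. All 6 windows held TTTGAA or TTTAAA and at least 1 CCAAT. In CDC20 a TTTGAA lay 65 to 60 bases before the start between a CCAAT at 100 to 96 and another at 55 to 51. In PTTG1 a CCAAT at 51 to 47 and a reverse one at 48 to 44 overlapped. The table matched 80 of the 96 genes that were at least 2-fold higher in members in each library. Of these 80, 53 (66.2%) held TTTGAA or TTTAAA and 63 (78.8%) held CCAAT, and without the 6 score genes the shares were 63.5% and 77.0% of 74 promoters. Over the 6006 matched genes that entered the comparison the shares were 13.7% and 35.9%, and over all 27305 tabulated promoters of this length they were 22.1% and 33.0%. A match shows only that these letters occur in the window.

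The lowest member had a score of 16.27 UMIs per 10000 and the highest other cell 16.25, so the limit cuts through a continuous range. Within 1 UMI per 10000 of it lay 48 members and 67 other cells. Members had a median score of 21.9 and a maximum of 52.0, while the median of other cells was 2.85 and 544 of them had no UMI of any of the 6 genes. At least 1 UMI of each of the 6 genes was found in 495 of 564 members (87.8%), against 543 of 5076 other cells (10.7%). In 11 members a single gene gave over 50% of the score UMIs. The rule itself favours this detection, and free RNA can add single UMIs.

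CDC20, the APC/C activator, gave the most RNA. It stood at 674, 763 and 699 counts per 1000000 UMIs (CPM) in double-positive, single-positive and parental members, against 118, 141 and 127 CPM in the other cells of the same libraries. It led the score in 353 members, more than any other gene. CCNB1, the mitotic cyclin, had 492, 502 and 515 CPM in members in the same order of libraries, against 80.9, 92.5 and 86.3 CPM in other cells. PTTG1, the securin, had 526, 480 and 519 CPM in members and 160, 162 and 160 CPM in other cells. With log2 ratios of 1.72, 1.57 and 1.70 it was the score gene least set apart from other cells, and it was also the leading gene in 114 members. PLK1 had 288, 301 and 281 CPM in members, against 34.2, 38.1 and 36.7 CPM in other cells. The phosphatase gene CDKN3 had 181, 163 and 183 CPM in members, against 33.9, 32.6 and 38.8 CPM in other cells. KIF20A, the midzone kinesin, was the least abundant and had the highest ratio. Its level was 113, 126 and 116 CPM in members, against 8.48, 11.01 and 8.76 CPM in other cells, log2 ratios of 3.73, 3.51 and 3.73. For every score gene the member values of the 3 libraries lay close together and apart from all 3 values of other cells, as the choice of members sets them to. Barcodes with 100 UMIs or fewer, which hold free RNA, carried the 6 genes at 740, 729 and 745 CPM in the double-positive, single-positive and parental libraries. Members summed to 2274, 2335 and 2313 CPM, above these levels, and other cells to 435, 477 and 457 CPM, below them. With cells in 10 equal bins of score, the non-member bins summed to 621 CPM or less up to the seventh, and to 850 and 1289 CPM in the eighth and ninth, so only these last bins lay above the free RNA.

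**Figure D1:**
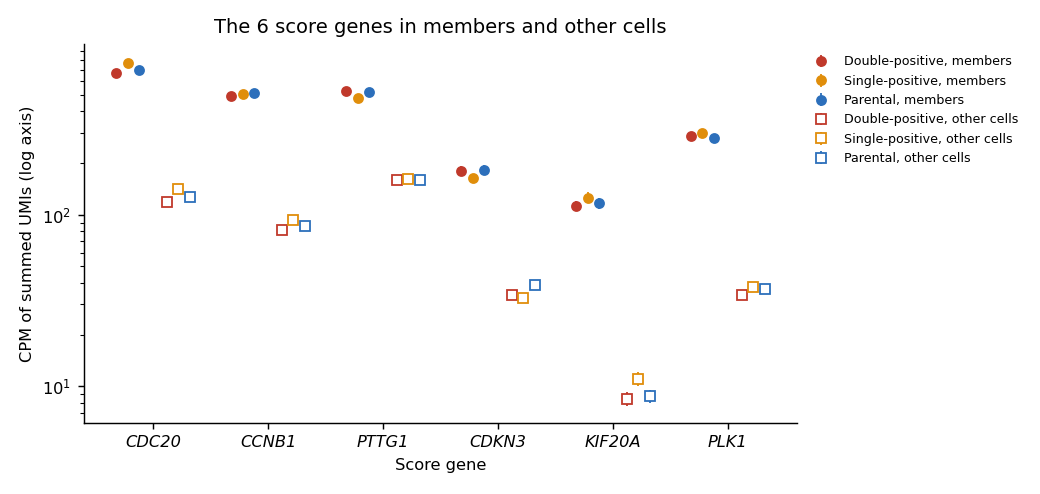
CPM of the 6 score genes (log axis) in members (filled circles, left) and other cells (open squares, right) of the double-positive, single-positive and parental libraries. Bars are exact Poisson 95% intervals, mostly smaller than the symbols, and for each gene the 3 member points lie together above the 3 points of other cells, furthest for KIF20A.

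Members made up nearly the same share of each library. They were 198 of 1940 double-positive cells (10.2%, exact Clopper-Pearson 95% interval 8.89% to 11.6%), 123 of 1291 single-positive cells (9.53%, 7.98% to 11.3%) and 243 of 2409 parental cells (10.1%, 8.91% to 11.4%). The intervals overlap, and here as below they cover counting error only. After every cell was thinned to 6500 UMIs and members were chosen anew, the shares were 10.5%, 10.1% and 9.59%, and 457 of the 564 members were chosen again. Members were deeper than other cells in each library, with medians of 36762 against 29219 UMIs in double-positive, 51246 against 37557.5 in single-positive and 27549 against 23041 in parental cells. In the single-positive library 64 of 123 members (52.0%) were droplets of 50000 UMIs or more, against 280 of 1168 other cells (24.0%). Without such droplets in any library the shares were 10.7% of double-positive, 6.86% of single-positive and 10.8% of parental cells. No droplet was removed as a doublet, and the part of large droplets in this difference was not tested. The number of genes detected at 6500 UMIs hardly differed, with medians of 2413, 2428 and 2417 in members and 2387, 2428 and 2373 in other cells. Droplets under 0.5% mitochondrial UMIs were 11 of the 198 double-positive members, 39 of the 123 single-positive and 66 of the 243 parental ones, which is 5.56%, 31.7% and 27.2%. In other cells of the same libraries they were 6.26%, 20.7% and 32.4%. Between the libraries 16 cells shared a barcode, and 0 of these were members.

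The label was checked with 30 mitotic genes that the score does not use, such as CDK1, AURKA, TOP2A and the kinetochore motor CENPE. All 30 were higher in members in each library and 29 at least 2-fold. Of the 7652 genes compared, 35.7% were higher in each library and 1.25% at least 2-fold. SGOL1, whose protein guards centromeric cohesin, was the exception at log2 ratios of 1.07, 0.65 and 0.85. The median log2 ratio of the list was 1.98, 1.99 and 1.96 in the double-positive, single-positive and parental libraries, against 0.01, -0.01 and 0.02 over all genes. Its genes summed to 4742, 4719 and 4674 CPM in members and to 1202, 1242 and 1163 CPM in other cells. Cell by cell, 3 members lay under the median of other cells and 44 other cells over the median of members, 31 of which were in the tenth of cells just under the limit. As a group the members were thus high in mitotic genes outside the score, though 171 of 564 had under 30 UMIs of them per 10000. Many such genes are transcribed together with the score genes. Their level therefore does not show that a given member was in mitosis. These genes were counted in the cells the score had ranked, so the values are a description. Epithelial markers stayed on in members, with KRT19 at 1972, 2085 and 1980 CPM in members and 2251, 2296 and 2298 CPM in other cells. Fibroblast, endothelial, erythroid and neural or endocrine marker lists each summed to under 5 CPM in every set of cells, 2.19 CPM at most in members. The immune list summed to 29.6, 21.9 and 37.4 CPM in members and 37.8, 34.5 and 45.6 CPM in other cells, and CD68 was the only one of its 10 genes to enter the comparison.

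**Figure D2:**
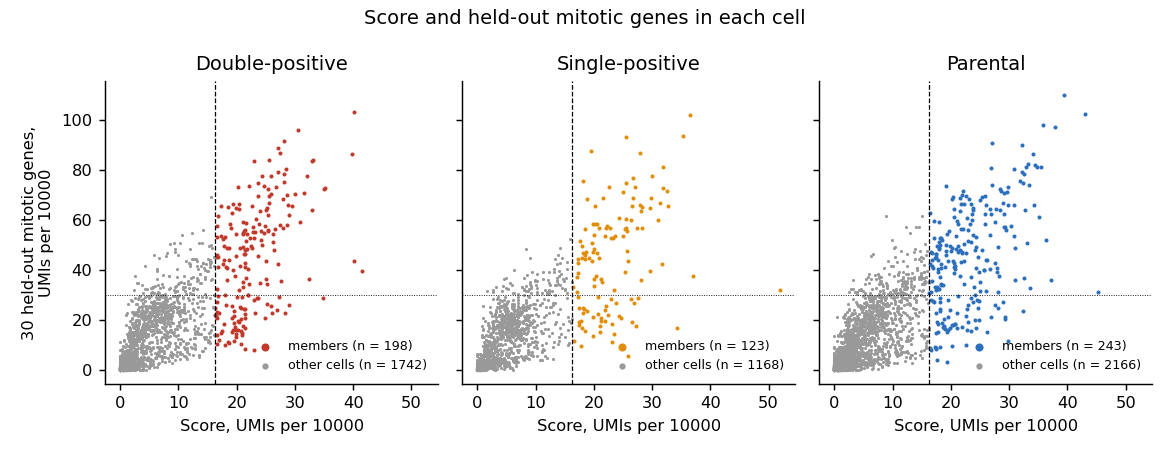
Each point is a cell, with its score on the x axis and the UMIs of 30 held-out mitotic genes per 10000 on the y axis, members in colour and other cells in grey. The dashed line is the lowest member score of 16.27 and the dotted line 30 held-out UMIs per 10000. Members spread over a wide range of held-out levels, with 171 of 564 under the dotted line.

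Most genes of mitotic entry were high in members. Of 17 listed kinases, phosphatases and cyclins, 15 were higher in each library and 10 at least 2-fold. For this list and the mitotic lists below, the shares over all genes were 35.7% higher in each library and 1.25% at least 2-fold. This list and several below share genes with each other and with the held-out list, such as AURKA and CCNB2. Their counts are thus not independent. AURKA, the kinase of spindle poles that activates PLK1, had 161, 167 and 163 CPM in double-positive, single-positive and parental members, against 28.3, 31.2 and 30.8 CPM in other cells. CCNB2, the second B-type cyclin, had 249, 235 and 256 CPM in members, against 49.3, 47.5 and 48.9 CPM in other cells. Both sets of values were tight between libraries. ENSA and ARPP19, small proteins that restrain the phosphatase PP2A once phosphorylated, differed little, with log2 ratios of 0.02, 0.05 and 0.03 for ENSA and -0.04, -0.09 and -0.05 for ARPP19. FOXM1, the transcription factor of these genes, had 53.8, 62.8 and 48.5 CPM in members and 24.5, 30.7 and 21.8 CPM in other cells. It was the only one of 7 counted FOXM1 and MuvB genes that was 2-fold higher, and MYBL2 had log2 ratios of -0.25, -0.01 and -0.07.

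Among genes of the APC/C and its enzymes, the ubiquitin-conjugating UBE2C and UBE2S stood apart in members. UBE2C, which primes substrates, had 1252, 1166 and 1286 CPM in members, against 256, 258 and 283 CPM in other cells. UBE2S, which extends the chains, had 1541, 1768 and 1721 CPM in members, against 516, 616 and 642 CPM in other cells. These were the only 2-fold genes among 17 counted, and the median log2 ratios of the list were 0.17, 0.08 and 0.04. UBE2D1, another ubiquitin-conjugating enzyme, ran the other way at -0.19, -0.42 and -0.57. The inhibitor gene FBXO5 had log2 ratios of -0.39, -0.73 and 0.02. Of 15 genes for APC/C substrates all were higher in each library and 12 at least 2-fold, with NEK2, a centrosome kinase, at log2 ratios of 2.43, 2.26 and 2.44. Substrates that also serve DNA replication were the least apart, at 0.32, 0.49 and 0.70 for TK1 and 0.25, 0.20 and 0.27 for GMNN. In the spindle checkpoint, which holds CDC20 back until all chromosomes are attached, 9 of 11 genes were higher and 4 at least 2-fold. BUB1 had 42.0, 42.8 and 37.3 CPM in members and 10.4, 10.7 and 9.55 CPM in other cells, while MAD1L1 had log2 ratios of 0.23, -0.15 and -0.03.

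Spindle and kinesin genes were higher throughout. All 27 counted were higher in each library and 24 at least 2-fold, with median log2 ratios of 1.93, 1.75 and 1.78. PSRC1, a microtubule-binding protein of the spindle, had the highest ratio of any named gene outside the score. It stood at 35.5, 45.02 and 41.2 CPM in members, against 4.87, 5.90 and 5.62 CPM in other cells. DLGAP5, which stabilises kinetochore fibres, had 130, 110 and 117 CPM in members, against 20.3, 20.3 and 19.6 CPM in other cells. TPX2, the activator of AURKA on spindle microtubules, had 434, 468 and 419 CPM in members, against 105, 111 and 104 CPM in other cells. At the low end stood PLK4, the kinase of centriole duplication, and NUMA1, at log2 ratios of 0.41, 0.48 and 0.87 and of 0.37, 0.21 and 0.36. Of 9 counted tubulin genes 8 were higher in each library, 2 of them at least 2-fold, and 0 lower. TUBA1C had 2260, 2462 and 2399 CPM in members and 1019, 1157 and 1023 CPM in other cells, and TUBB4B was likewise 2-fold higher, while TUBB6 had log2 ratios of 0.02, -0.21 and 0.08.

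On the chromosomes, 13 of 13 condensin and chromosome genes were higher in each library and 8 at least 2-fold. TOP2A, the topoisomerase that untangles sister chromatids, had 150, 157 and 144 CPM in members and 34.5, 33.2 and 29.4 CPM in other cells. The condensin II subunits NCAPD3 and NCAPH2 were the least apart, NCAPH2 at log2 ratios of 0.10, 0.07 and 0.16. Of 27 kinetochore genes 24 were higher and 9 at least 2-fold. CENPE, the motor that moves chromosomes to the spindle equator, had 47.2, 51.6 and 43.6 CPM in members, against 8.68, 9.34 and 7.94 CPM in other cells. CENPU, of the inner kinetochore, ran the other way at log2 ratios of -0.28, -0.39 and -0.21. Of 15 chromosomal passenger and cohesin genes 14 were higher and 5 at least 2-fold, among them BIRC5 at 1.62, 1.62 and 1.57, while the cohesin subunit STAG2 had 0.07, 0.05 and -0.12. For cell division itself, 12 of 16 genes were higher and 10 at least 2-fold. PRC1, which bundles midzone microtubules, had 171, 175 and 154 CPM in members and 44.01, 50.004 and 41.7 CPM in other cells. RHOA, the GTPase of the contractile ring, had 449, 441 and 475 CPM in members and 442, 437 and 453 CPM in other cells, and the ESCRT-III gene CHMP2A had log2 ratios of -0.04, -0.22 and -0.25. Of 16 genes of the nuclear envelope, LMNB1 and SUN2 were 2-fold higher.

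**Figure D3:**
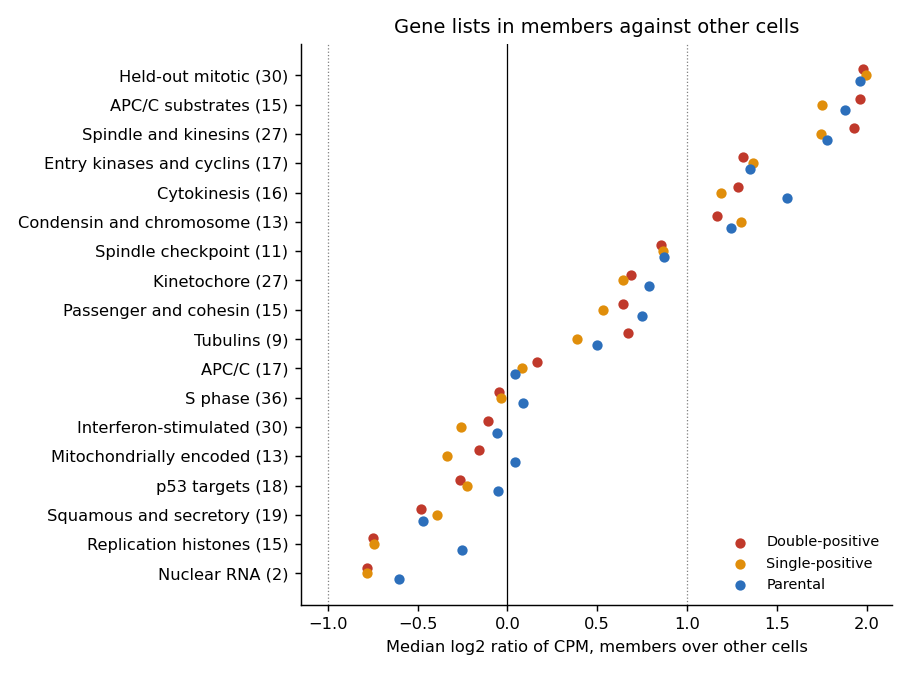
Median log2 ratio of CPM, members over other cells, of 18 gene lists (rows, number of counted genes in brackets) in the double-positive, single-positive and parental libraries. Dotted lines mark 2-fold. Mitotic lists, which share some genes, lie to the right in all 3 libraries, with replication histones and nuclear RNA on the left.

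Fewer genes were low in members. At least 2-fold lower in each library were 21 genes, 0.274% of those compared, and without the parental library the count was 41. They were led by SPRR2E, a cornified envelope protein, at 7.86, 6.25 and 3.36 CPM in members, against 41.7, 36.1 and 37.7 CPM in other cells. CXCL10, a chemokine induced by interferon, had 7.44, 7.37 and 8.92 CPM in members, against 33.4, 37.4 and 57.7 CPM in other cells. UMIs of SPRR2E came from 13, 6 and 10 member cells and those of CXCL10 from 15, 4 and 21, so both rest on few cells. C15orf48, a mitochondrial protein induced in inflammation, had 115, 63.6 and 181 CPM in members and 377, 303 and 483 CPM in other cells. CTGF, a matricellular protein and YAP target, had 32.7, 40.7 and 43.3 CPM in members and 121, 109 and 106 CPM in other cells. Of 19 squamous and secretory genes, 10 were lower in each library and 4 higher, the lower ones including the adhesion protein gene CEACAM5 at log2 ratios of -1.77, -1.38 and -1.63 and the higher ones KRT6A at 0.36, 0.26 and 0.29. Of 30 interferon-stimulated genes 18 were lower in each library, as were 32.2% of all genes, and the list had median log2 ratios of -0.11, -0.26 and -0.06. Nuclear noncoding RNAs were also low, NEAT1 at 361, 307 and 327 CPM in members, against 708, 649 and 612 CPM in other cells. The p53 target CDKN1A, an inhibitor of cyclin-dependent kinases, had log2 ratios of -0.44, -0.42 and -0.26. Of 15 adhesion and contractility genes linked to entosis, 7 were lower and 2 higher in each library, against 32.2% and 35.7% of all genes. None was 2-fold apart, where 0.274% of all genes were 2-fold lower and 1.25% 2-fold higher. EZR had log2 ratios of -0.11, -0.04 and 0.05.

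Genes of S phase did not separate members from other cells. Of 36, 13 were higher and 8 lower in each library, against 35.7% and 32.2% of all genes. PCNA, the sliding clamp of DNA polymerases, had 168, 157 and 161 CPM in members and 207, 204 and 180 CPM in other cells, while RRM2, a ribonucleotide reductase subunit, had 108, 107 and 106 CPM in members and 72.0, 75.7 and 66.3 CPM in other cells. Of 15 replication histone genes, 10 were lower in each library and 0 higher, against 32.2% and 35.7% of all genes. HIST1H1E had log2 ratios of -0.89, -0.66 and -0.48. Ordering all cells in 10 equal bins of score placed these lists. S phase genes were highest in the fifth bin in the double-positive and single-positive libraries, at 3013 and 3118 CPM, and in the sixth in the parental library, at 2335 CPM. Members, the tenth bin, had 1907, 2055 and 1879 CPM of them. Replication histones were highest in the seventh bin in the double-positive and parental libraries, at 1460 and 1190 CPM, and in the sixth in the single-positive library, at 2043 CPM. Members had 634, 847 and 724 CPM of them in double-positive, single-positive and parental cells. The held-out mitotic genes increased through all bins in each library, and pooled they stood at 4712 CPM in members and 2727 CPM in the ninth bin. Along the score S phase genes peaked before histones, and histones before mitotic genes, in each library. Squamous and secretory genes, pooled, had 17553 CPM in the first bin, 9391 CPM in the ninth and 10124 CPM in members. From the ninth bin to members KIF20A differed most of the score genes, with a log2 ratio of 1.58, and PTTG1 least, at 0.45, while SGOL1 had 0.12. Median UMIs per cell differed along the score too, at 19312 in the first bin, 32830 in the ninth and 34152.5 in members, and their part in these levels was not tested.

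**Figure D4:**
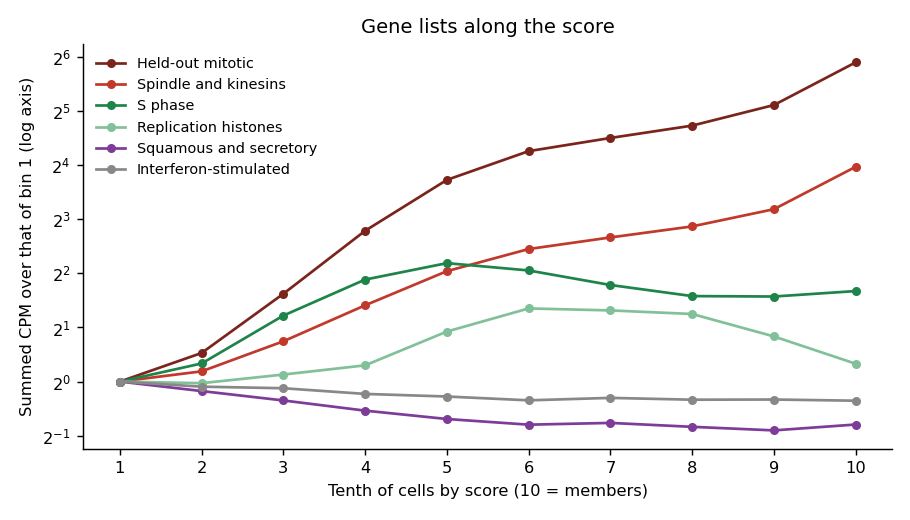
Summed CPM of 6 gene lists, pooled over the 3 libraries, over that of the lowest bin (log axis) along 10 bins of 564 cells ordered by score, where bin 10 holds the members. Pooled, S phase genes peak in bin 5 and replication histones in bin 6, though histones peak in bin 7 in the double-positive and parental libraries and S phase genes in bin 6 in the parental one, while the held-out mitotic genes are highest in members.

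Members were not uniform in the mitotic genes outside the score. The held-out level per cell had a dip at 30 to 40 UMIs per 10000 in the double-positive library, with 38 members at 20 to 30, 15 at 30 to 40 and 31 at 40 to 50. The same counts were 20, 15 and 17 in the single-positive and 31, 33 and 51 in the parental library, which had no dip there. A limit of 30, chosen after these values were seen, left 171 members (30.3%) under it and 393 over it, with 19 and 9 cells within 2 of the limit. Members under it made up 66 of 198 double-positive (33.3%), 39 of 123 single-positive (31.7%) and 66 of 243 parental members (27.2%). Both sets carried CDC20 alike, at 671, 751 and 677 CPM in members under the limit and 675, 767 and 705 CPM in the rest. All members had passed the same score limit, and CDC20 is part of that score. PTTG1 was also close, at log2 ratios of -0.03, 0.11 and 0.07, whereas PLK1 had 157, 162 and 158 CPM under the limit and 340, 345 and 316 CPM in the rest. Of the 6 score genes PLK1 alone was 2-fold apart between the sets in each library.

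Genes of the held-out list set this split, so a lower sum of them under the limit follows from the choice. The levels of its genes below describe the split only. UBE2C, which gave 26.2% of the list's UMIs in members, had 183, 120 and 160 CPM under the limit, against 1668, 1496 and 1606 CPM in the rest. CDK1 had 19.5, 20.0 and 31.0 CPM under the limit and 267, 227 and 267 CPM in the rest, and TOP2A 24.5, 15.4 and 19.8 CPM against 199, 202 and 180 CPM. In all 3 libraries these 3 genes under the limit lay below the non-member cells too, which had 256, 258 and 283 CPM for UBE2C, 63.5, 57.3 and 59.0 CPM for CDK1 and 34.5, 33.2 and 29.4 CPM for TOP2A. The held-out list as a whole did not, and summed to 2141, 2065 and 2008 CPM under the limit, against 1202, 1242 and 1163 CPM in non-member cells. At 6500 UMIs per cell, CDK1 was found in 13 of 171 members under the limit (7.60%), in 283 of 393 other members (72.0%) and in 1262 of 5076 non-member cells (24.9%). UBE2C was found in 40.4%, 96.7% and 45.1% of the same sets, and at full depth in 70.2% of members under the limit and 60.6% of non-member cells. TOP2A was found in 6.43%, 69.0% and 15.5% at 6500 UMIs, and at full depth in 36.3% of members under the limit and of non-member cells alike.

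Among 7521 genes compared between the 2 sets of members, 28 (0.372%) were at least 2-fold lower under the limit in each library and 6 (0.0798%) higher. Of the 28, 10 were in the held-out list, 1 was PLK1 and 17 had no part in the choice. The highest level among these 17 belonged to MALAT1, an abundant nuclear RNA, at 813, 578 and 769 CPM under the limit, 2014, 2095 and 1856 CPM in the rest and 2528, 2427 and 1990 CPM in non-member cells. Nuclear noncoding RNAs were not low as a set, since of 2 counted, 1 was lower and 1 higher under the limit in each library. KPNA2, a nuclear import receptor, had 113, 108 and 146 CPM under the limit and 504, 497 and 518 CPM in the rest. INCENP, the scaffold of the passenger complex, had log2 ratios of -1.94, -1.73 and -1.60, and all 28 spindle and kinesin genes counted were lower in each library, as were 24.6% of all genes. Of these 28, 11 are in the held-out list that made the split. Higher under the limit was SNHG10, a host gene of small nucleolar RNA, at 35.1, 40.7 and 40.9 CPM, against 16.6, 12.4 and 14.8 CPM in the rest. Of 13 mitochondrially encoded genes 11 were higher in each library and of 13 heat shock genes 10, with medians of 0.25, 0.16 and 0.23 and of 0.30, 0.25 and 0.14, while 19.6% of all genes were higher in each library. Depth moved with the split. Members under the limit had medians of 27208.5, 34423 and 20255.5 UMIs, against 38866.5, 55526 and 30498 UMIs in the rest. The genes of this paragraph and of the split were named after their values were seen.

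Between libraries the held-out mitotic genes of members hardly differed. Over the 30 held-out genes the median log2 ratio was 0.00 for double-positive over single-positive, 0.08 for single-positive over parental and 0.06 for double-positive over parental members, and none of the 30 reached 2-fold in any pair. The 6 score genes had medians of -0.05, 0.03 and -0.03, which the shared limit on their sum holds close together. All 3 pairs share libraries, and with 1 library a group a difference of group and of library cannot be told apart. Few genes of any kind reached 2-fold, so none among 30 is close to the rate over all genes. In double-positive over single-positive members 7 were higher and 14 lower (0.0915% and 0.183% of 7652). The counts were 5 and 28 in single-positive over parental (0.0653% and 0.366%), and 5 and 18 in double-positive over parental (0.0653% and 0.235%). In non-member cells, which are more numerous, the counts were 2 and 5 for the first pair (0.0261% and 0.0653%), 6 and 2 for the second (0.0784% and 0.0261%) and 12 and 4 for the third (0.157% and 0.0523%).

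Mitochondrially encoded genes were higher in double-positive members than in members of the other libraries. Set against the other cells of their own library they had median log2 ratios of -0.16 in double-positive, -0.33 in single-positive and 0.04 in parental members. All 13 were above single-positive members, with a median log2 ratio of 0.89 (0.71 in non-member cells), and above parental members, with 0.96 (1.18 in non-member cells). Of all genes, 48.9% and 53.3% were higher in these pairs. Between single-positive and parental members the median was 0.04, against 0.45 in non-member cells. VIM, the intermediate filament vimentin, had 42.4 CPM in double-positive, 94.7 CPM in single-positive and 35.4 CPM in parental members, and 34.02, 75.04 and 37.5 CPM in non-member cells. Its log2 ratios in members were -1.16 for double-positive over single-positive and 1.42 for single-positive over parental, and -0.39 and 0.45 without droplets of 50000 UMIs or more. DHRS2, a short-chain dehydrogenase, had 714, 367 and 498 CPM in members and 434, 176 and 258 CPM in non-member cells. In members and in other cells alike the single-positive library had the most VIM and the least DHRS2. Interferon-stimulated genes were low in single-positive members, 30 of 30 below parental ones with a median log2 ratio of -0.34, against -0.19 in non-member cells, and 46.1% of all genes lay below parental members.

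Several other library differences of members rested on few cells or moved when cells were thinned. DDIT3, a transcription factor of the unfolded protein response, had 26.8 CPM in double-positive, 21.3 CPM in single-positive and 88.9 CPM in parental members, and 55.7, 55.0 and 64.0 CPM in non-member cells. Its UMIs came from 73, 61 and 84 member cells. When cells were thinned to 6500 UMIs and members chosen anew, its log2 ratio of single-positive over parental members was -0.40 in place of -2.06. IFIT2, an interferon-stimulated gene, had a like pattern at 36.5, 12.7 and 66.1 CPM in members, with 43.0% of its single-positive UMIs in 1 cell. TFF1, a secreted trefoil peptide, had 48.9 CPM in single-positive members, 77.4% of it from 1 cell, against 17.2 CPM in parental members. CXCL8, a neutrophil chemokine, had 13.2 CPM in double-positive, 30.1 CPM in single-positive and 36.4 CPM in parental members. Of its single-positive UMIs, 56.4% lay in 1 cell. C15orf48 and ASS1, the urea cycle enzyme argininosuccinate synthase, were spread over 49 and 72 single-positive members. Their log2 ratios of single-positive over parental members were -1.51 and -1.48, and thinned they were -1.51 and -1.36, against -0.67 and -0.29 in non-member cells.

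**Figure D5:**
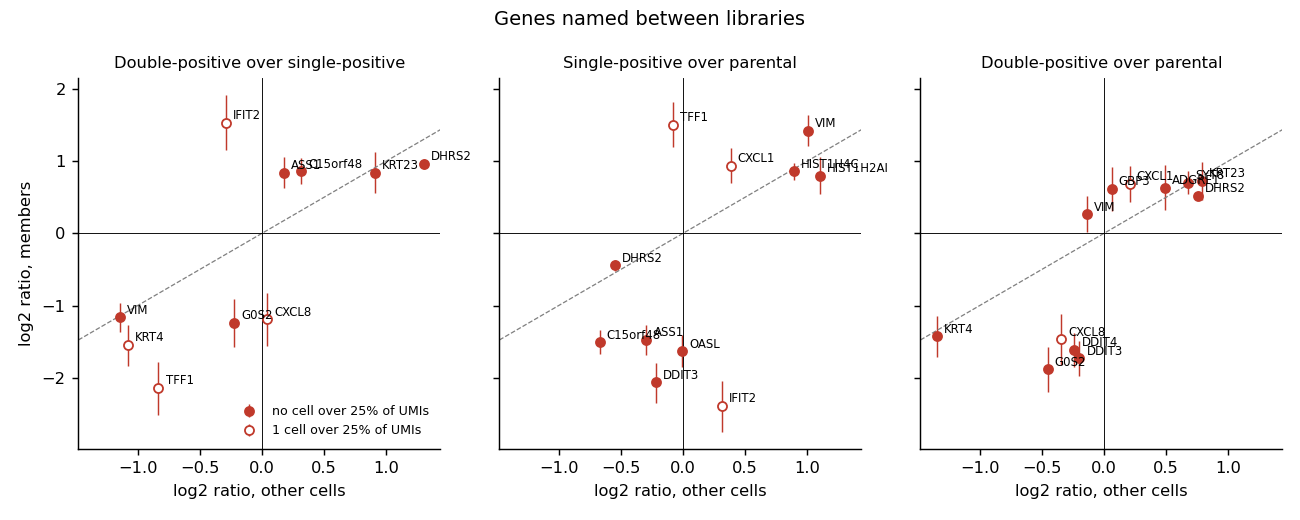
Log2 ratio between 2 libraries in members (y axis, bars are exact 95% intervals for counting error) against the same ratio in other cells (x axis) for the 5 highest and 5 lowest genes of each pair, VIM and DHRS2. Open points have over 25% of the UMIs of a library's members in 1 cell, and the dashed line marks equal ratios. VIM lies near it for double-positive over single-positive, at -1.16 in members and -1.14 in other cells. It lies above the line for single-positive over parental (1.42 and 1.00) and double-positive over parental (0.26 and -0.14). In the same order of pairs DHRS2 has 0.96 and 1.30, -0.44 and -0.55, and 0.52 and 0.75.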

How the data were processed

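The deposited files hold whole-number counts of UMIs per gene and barcode, raw and not filtered for cells, with 737280 barcodes and 33694 features each. The authors made them with Cell Ranger, per the file headers. Versions 4.0.0 of Cell Ranger and 4.0.6 of Seurat and the build GRCh38 come from the submitters' processing notes. Which annotation release was used, and whether both colours were pooled for the single-positive library, are both not given in the sources used here. UMIs in the double-positive, single-positive and parental libraries numbered 62517276, 51637677 and 65107147.

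Cells were barcodes with 6500 or more UMIs, 500 or more genes and no more than 20% mitochondrial UMIs. UMIs were summed over members and over other cells of each library and scaled to CPM. A gene was compared if its mean over the 6 sums reached 10 CPM, and for the split of members by the held-out genes, over the sums of that split. Log2 ratios have exact conditional binomial intervals and shares exact Clopper-Pearson intervals, both at 95% and for counting error only. A gene was counted where it lay at least 2-fold apart in the same direction in each of the 3 libraries, and between 2 libraries where it lay 2-fold apart. Cells of a library are not replicates and the members were chosen from these counts, so no test was run. Members, gene lists, thresholds and the rule for named genes were chosen with earlier results of these data known. Named were the 6 score genes, the 12 highest and 12 lowest ratios at 30 CPM or more, up to 6 genes of each list and the 5 highest and 5 lowest ratios between libraries. Genes that share reads with near-identical copies, such as PTTG1, tubulins and histones, are less certain. Sequences came from the RefSeq promoter table for GRCh38.p14, matched by gene identifier or symbol.

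The computation was tested on simulated data. Alternatives changed the depth, the percent of cells taken, the score genes, the cell limits, scaling, ambient RNA and the expression floor. The software was Python 3.11.15 with the packages scipy 1.17.1, numpy 2.4.6, matplotlib 3.10.9 and pandas 2.3.3.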

Additional observations from a re-analysis of the deposited data

How the results depend on the processing

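No paired analysis was possible because each group has 1 library. Members per library: the top 5% of cells gave shares of 4.74%, 4.96% and 5.23% in the double-positive, single-positive and parental libraries and the top 20% gave 19.9%, 18.4% and 20.9%, by construction. Without droplets of 50000 UMIs or more the single-positive share was 6.86%, and leaving out 1 library gave 10.1% to 10.2%, 9.60% to 9.68% and 9.96% to 10.2%. Genes at least 2-fold higher in members numbered 96, and 62 where the mean had to reach 30 CPM, which leaves fewer genes to count, and 97 to 102 with 1 library left out. Genes 2-fold lower numbered 21, with 34 in the top 5%, 10 in the top 20%, 40 with ambient RNA subtracted, 7 at 30 CPM and 25 to 41 with 1 library left out (41 without parental), and the cause was not tested. The held-out count of 29 ran between 26 and 29. The held-out list's median log2 ratio over genes of 1.95 was 1.89 thinned, 2.02 in the top 5%, 1.85 in the top 20%, 1.92 without PTTG1 and without CDKN3 in the score, 1.89 without PLK1, 1.98 without droplets of 50000 UMIs or more, 1.97 without droplets under 0.5% mitochondrial UMIs, 2.03 as a mean over cells, 2.13 with ambient RNA subtracted and 1.95 to 1.98 with 1 library left out. Genes 2-fold apart between members of 2 libraries numbered 21 for double-positive over single-positive, 33 for single-positive over parental and 23 for double-positive over parental. Thinned, with fewer UMIs behind each gene, they numbered 289, 238 and 144, in the top 5%, with fewer cells, 59, 58 and 37, and at 30 CPM 9, 16 and 11. Without droplets of 50000 UMIs or more the first pair had 61 and the second 62, the top 20% gave the second 14, and with ambient RNA subtracted the first had 47 and the third 38. These counts thus vary with depth and with the number of cells. Log2 ratios of double-positive over single-positive members changed sign for CXCL8 (0.14 in the top 5%, 0.51 without droplets of 50000 UMIs or more), IFIT2 (-0.14 in the top 20%), KRT4 (2.17 without droplets of 50000 UMIs or more) and TFF1 (1.07 without those droplets, 1.88 without droplets under 0.5% mitochondrial UMIs). For single-positive over parental members OASL (0.0625 in the top 20%) and TFF1 (-1.88 and -2.80 under those 2 droplet limits) did so. CXCL1, which was under 2-fold in the main run, changed sign as well. Its log2 ratio of single-positive over parental members was 0.94 and at lowest -0.39. For double-positive over parental members it was 0.69, and -0.13 thinned. The cause of these changes was not tested. None of the 30 genes named for members against other cells changed sign under an alternative run for that comparison. Splitting members at 25 or 35 held-out UMIs per 10000, alternatives added after seeing the data, left 130 and 201 members under the limit. Another such split, without UBE2C in the list, had its limit set to keep 171 members, of which 148 were the same. These gave median log2 ratios of -4.15, -3.17 and -2.19 for UBE2C and -1.33, -1.28 and -1.35 for MALAT1 in that order, against -3.32 and -1.31 at 30. No result has a replicate check.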
